A study of Homo sapiens with 6 samples.

Results

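The 38 genes described here are the enzymes of glycolysis, the glucose transporters and regulators that feed it, and genes known to be induced by the hypoxia-inducible factors (HIF), together with the HIF alpha subunits HIF1A and EPAS1. They were chosen by name, and each was represented by the probe with the highest mean over the 6 arrays among probes with a detection p below 0.05 on at least 2 arrays. Of the 38, 37 had such a probe among the 13022 genes tested, and CA9 was not analysed here. They comprise 17 glycolytic enzymes, 4 genes for glucose transporters and PFKFB enzymes, 14 of 15 listed HIF target genes, and both alpha subunits. Of the 37 genes, 33 were detected on all 6 arrays. LDHB, SLC2A3 and EGLN3 were detected on 4, and PDK1 on 2.

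Total RNA of 2 human breast cancer cell lines was hybridised to 6 Illumina bead arrays. MDA-MB-231, a mesenchymal-like line without hormone receptors, had 2 arrays labelled shRNA-1 (SETDB1 knock-down) and 2 labelled shCtrl (SETDB1 control). MDA-MB-453, a luminal-like line, had 1 array labelled shRNA-3 (SETDB1 knock-down) and 1 labelled shCtrl. All cells grew in DMEM with fetal bovine serum, and the labels name no oxygen condition, so none of the groups is labelled hypoxic. Cell line and hairpin changed together, each line was studied with a single hairpin, and the effects of line and hairpin cannot be told apart. Values are normalised log2 intensities, and differences are shRNA minus shCtrl as labelled, with standard errors (SE) from limma. A gene "rose" or "fell" when its adjusted p was below 0.05 over all 13022 genes. The labels do not say whether replicates were separate cultures, so the p-values measure the spread between arrays, which may be technical. RNA from whole cultures was measured, so a change in every cell and a change in the share of cells expressing a gene cannot be told apart.

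Glycolysis splits glucose into pyruvate in the cytosol, and lactate dehydrogenase turns pyruvate into lactate. HIF is a transcription factor of an oxygen-labile alpha subunit, HIF-1 alpha (HIF1A) or HIF-2 alpha (EPAS1), and a stable beta subunit. In oxygenated cells the prolyl hydroxylases EGLN1, EGLN2 and EGLN3 mark the alpha subunit for degradation through the VHL ubiquitin ligase. When oxygen falls, or when alpha subunit synthesis outpaces degradation, HIF binds hypoxia response elements in and around its target genes. Its targets include most glycolytic enzymes, and breast tumours commonly express them at high levels.

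The HIF-bound element has the core ACGTG or GCGTG, which reads CACGT or CACGC on the other strand. The 250 bases before the annotated start are shown for 6 genes with a single start in the RefSeq promoter table (GRCh38.p14), 5′ to 3′ on the gene's strand, with every match to the core in capitals. ALDOC, DDIT4, EPAS1 and ANKRD37 are shown because they had some of the largest rises, BNIP3 because it had the most matches without passing the test, and LDHB because it fell.
ALDOC: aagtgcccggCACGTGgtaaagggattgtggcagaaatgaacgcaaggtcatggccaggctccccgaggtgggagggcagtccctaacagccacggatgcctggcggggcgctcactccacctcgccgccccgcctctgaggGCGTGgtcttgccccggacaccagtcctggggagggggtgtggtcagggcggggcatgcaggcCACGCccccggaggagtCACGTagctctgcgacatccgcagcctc
DDIT4: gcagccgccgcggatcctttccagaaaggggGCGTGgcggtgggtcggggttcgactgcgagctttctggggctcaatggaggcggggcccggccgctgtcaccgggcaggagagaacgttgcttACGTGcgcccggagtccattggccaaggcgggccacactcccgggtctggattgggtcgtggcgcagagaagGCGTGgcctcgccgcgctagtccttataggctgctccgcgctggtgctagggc
EPAS1: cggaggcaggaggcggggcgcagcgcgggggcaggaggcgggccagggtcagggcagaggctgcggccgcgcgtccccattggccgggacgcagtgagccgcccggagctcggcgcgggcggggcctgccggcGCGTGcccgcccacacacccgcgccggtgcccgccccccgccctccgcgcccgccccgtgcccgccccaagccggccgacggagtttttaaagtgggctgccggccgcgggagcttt
ANKRD37: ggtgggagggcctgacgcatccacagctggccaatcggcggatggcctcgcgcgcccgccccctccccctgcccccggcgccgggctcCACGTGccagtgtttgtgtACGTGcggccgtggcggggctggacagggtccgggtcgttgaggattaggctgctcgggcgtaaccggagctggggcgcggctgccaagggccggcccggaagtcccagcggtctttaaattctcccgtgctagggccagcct
BNIP3: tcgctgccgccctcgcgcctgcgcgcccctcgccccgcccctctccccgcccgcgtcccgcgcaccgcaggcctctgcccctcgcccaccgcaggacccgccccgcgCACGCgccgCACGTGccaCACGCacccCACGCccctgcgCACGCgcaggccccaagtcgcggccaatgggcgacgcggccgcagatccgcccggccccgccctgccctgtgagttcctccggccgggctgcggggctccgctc
LDHB: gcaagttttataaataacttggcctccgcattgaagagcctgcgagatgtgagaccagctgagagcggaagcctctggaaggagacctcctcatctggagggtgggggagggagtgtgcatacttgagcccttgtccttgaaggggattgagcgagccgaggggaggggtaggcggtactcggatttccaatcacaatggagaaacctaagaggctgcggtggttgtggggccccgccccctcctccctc

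The ALDOC window, chr17:28576896-28577145 on the minus strand, held 4 core matches, and the DDIT4 window, chr10:72273674-72273923 on the plus strand, held 3. EPAS1, chr2:46297157-46297406 on the plus strand, had 1, and ANKRD37, chr4:185396591-185396840 on the plus strand, had 2. BNIP3, chr10:131981924-131982173 on the minus strand, had 5. LDHB, chr12:21657843-21658092 on the minus strand, had 0 in this window. The palindrome CACGTG, which contains the core and is also the E-box read by MYC and related factors, was counted as 1 match. It occurred once each upstream of ALDOC, ANKRD37 and BNIP3.

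Of the 38 genes, 34 were in the promoter table, and VEGFA, SLC2A3, NDRG1 and BNIP3L were not. The core was present before at least 1 start of 28 of these 34 genes (82.4%), against 63.3% of the 10357 tested genes in the table and 47.4% of all 27305 genes in it. CACGTG was present for 8 of 34 (23.5%), against 11% of the tested genes. Several of the 34 genes have more than 1 start in the table, which gives a match more chances. The core was present for 12 of 16 genes that rose in MDA-MB-231, for 14 of 14 that did not pass the test and for 1 of 3 that fell.

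SETDB1, the histone methyltransferase named in the labels, read 7.40 and 7.42 on the MDA-MB-231 shCtrl arrays and 7.29 and 7.21 on the shRNA-1 arrays, a difference of -0.16 (95% confidence interval -0.53 to 0.22, adjusted p = 0.493). In MDA-MB-453 it read 8.98 on the shCtrl array and 8.73 on the shRNA-3 array. The MDA-MB-231 difference did not pass the test and that of MDA-MB-453 could not be tested, so each direction below rests on the labels. The arrays had 19230 to 21238 detected probes of 48107. Over the 13022 genes, replicate arrays of MDA-MB-231 correlated at 0.990 (shRNA-1) and 0.993 (shCtrl), arrays of opposite arms at 0.919 to 0.931, and the MDA-MB-453 pair at 0.982. All 7 markers of MDA-MB-231, among them VIM, AXL and CD44, were higher on its shCtrl arrays than on that of MDA-MB-453. Of the 6 measured markers of MDA-MB-453, 5 were higher in that line, and the other, KRT18, was higher in MDA-MB-231.

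With shRNA-1 in MDA-MB-231, 20 of the 37 genes rose, against 19.5% of all tested genes, and 3 fell, against 19.7%. The 23 called in either direction compare with 39.2% of all genes. Both HIF alpha subunits, 10 of 14 HIF target genes and 3 of the 4 transporter and PFKFB genes rose. Of the 17 glycolytic enzymes 5 rose, 3 fell and 9 did not pass the test. The enzyme counts lie closer to the 19.5% and 19.7% of all genes than those of the HIF target genes do. The median difference was 1.10 for HIF target genes and 0.35 for glycolytic enzymes, against -0.01 over all genes. Both shRNA-1 arrays lay above both shCtrl arrays for 28 of the 37 genes and below them for 6, where 34.1% of all genes lay above and 34.8% below. Rises of 2-fold or more were found for 14 genes, and LDHB fell by 2-fold or more, against 8.99% and 7.70% of all genes.

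Both alpha subunits rose in MDA-MB-231. EPAS1 read 7.21 and 7.27 on the shCtrl arrays and 10.29 and 10.46 on the shRNA-1 arrays, a rise of 3.13 ± 0.17 (SE, 8.78-fold, limma adjusted p = 4.24e-06). HIF1A read 8.30 and 8.62 on the shCtrl arrays and 10.22 and 10.07 on the shRNA-1 arrays, a rise of 1.68 ± 0.18 (3.21-fold, limma adjusted p = 0.000221). The groups did not overlap for either gene. The other HIF1A probes were called as well, the smaller difference being 1.47. These are messenger RNA levels, whereas oxygen controls the alpha subunits mainly as proteins. In MDA-MB-453, EPAS1 read 9.61 with shCtrl and 9.47 with shRNA-3, and HIF1A read 6.92 and 7.34. Neither moved by 2-fold between these single arrays, although the other HIF1A probes were higher with shRNA-3 by 0.99 and 0.93.

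**Figure D1:**
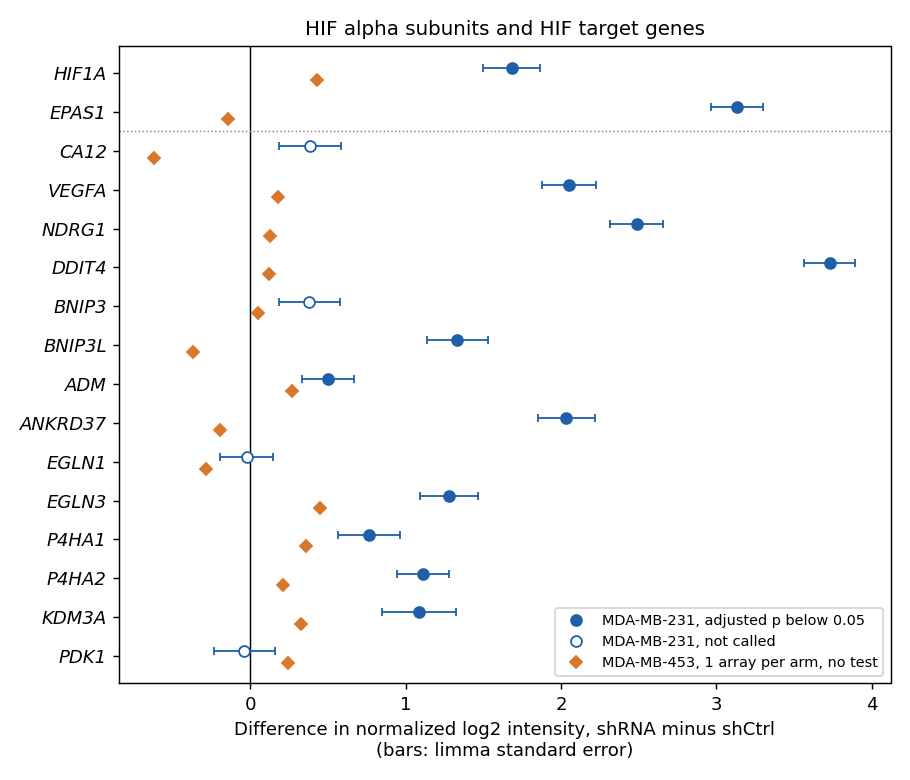
Difference in normalised log2 intensity, shRNA minus shCtrl, for both HIF alpha subunits and 14 HIF target genes. Circles are MDA-MB-231 (2 arrays against 2, bars are limma SE, filled where the adjusted p was below 0.05) and diamonds are MDA-MB-453 (1 array against 1). In MDA-MB-231 the points run from -0.04 for PDK1 to 3.73 for DDIT4, and every MDA-MB-453 point lies between -0.62 and 0.45.

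DDIT4, an inhibitor of mTOR signalling induced by several stresses besides low oxygen, had the largest rise of the set. It read 9.01 and 8.88 on the MDA-MB-231 shCtrl arrays and 12.68 and 12.67 on the shRNA-1 arrays, a 13.3-fold rise. Its values in MDA-MB-453 were 12.91 with shCtrl and 13.03 with shRNA-3. The shRNA-1 arrays of MDA-MB-231 thus came close to a level that MDA-MB-453 had in both arms.

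NDRG1, a stress-responsive protein and a widely used hypoxia marker, read 10.19 and 9.99 with shCtrl and 12.62 and 12.54 with shRNA-1, a rise of 2.49 ± 0.17 (limma adjusted p = 1.61e-05). VEGFA, the main angiogenic growth factor, went from 7.69 and 7.67 to 9.60 and 9.85, a rise of 2.05 ± 0.17 (limma adjusted p = 5.78e-05). Its other detected probe gave 2.08. ANKRD37, an ankyrin repeat protein, went from 6.66 and 6.56 to 8.47 and 8.81, a rise of 2.03 ± 0.18 (limma adjusted p = 8.04e-05). In each of the 3 genes both shRNA-1 arrays lay well above both shCtrl arrays. Their differences in MDA-MB-453 were 0.13, 0.18 and -0.20.

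Of the mitophagy receptors, BNIP3L rose and BNIP3 did not pass the test. BNIP3L read 8.43 and 8.79 with shCtrl and 9.81 and 10.08 with shRNA-1, a rise of 1.33 ± 0.20 (limma adjusted p = 0.00104), and its other probe gave 1.52. BNIP3 read 12.52 and 12.68 against 12.76 and 13.20, a difference of 0.38 ± 0.20 that did not pass (limma adjusted p = 0.166, 95% confidence interval -0.07 to 0.83). The BNIP3 shRNA-1 arrays differed more from each other than the lower of them did from the controls.

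Among oxygen sensors and other hydroxylases, EGLN3 rose and EGLN1 did not pass the test. EGLN3 was not detected on either MDA-MB-231 shCtrl array and was detected on both shRNA-1 arrays, at 5.74 and 6.09, so that it was at least 2.16-fold higher (limma adjusted p = 0.00102). Its measured group means were 5.91 and 4.64. EGLN1, the main oxygen-dependent hydroxylase of HIF alpha, read 7.65 and 7.85 with shCtrl and 7.76 and 7.69 with shRNA-1, a difference of -0.02 with an interval of -0.41 to 0.37. Its arms overlapped. The collagen prolyl hydroxylase subunits P4HA2 and P4HA1 rose by 1.11 ± 0.17 and 0.76 ± 0.20 (limma adjusted p = 0.00123 and 0.0153). P4HA2 read 9.72 and 9.85 with shCtrl and 10.83 and 10.96 with shRNA-1, and P4HA1 8.89 and 9.23 against 9.98 and 9.67. Neither overlapped. A dim further probe of P4HA2 gave -0.22 and was not called. KDM3A, a demethylase of the same histone residue that SETDB1 methylates, went from 6.21 and 6.91 to 7.70 and 7.59, a rise of 1.09 ± 0.24 (limma adjusted p = 0.0069). Its shCtrl arrays lay further apart than those of any other of the 37 genes.

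ADM, the precursor of the vasodilator peptide adrenomedullin, had the smallest rise that passed, 0.50 ± 0.17 (limma adjusted p = 0.0423), with 11.11 and 11.13 against 11.55 and 11.68, and did not pass under median scaling (0.39, limma adjusted p = 0.101). CA12, a membrane carbonic anhydrase that acidifies the cell exterior, read 8.03 and 8.10 against 8.22 and 8.67, a difference of 0.38 that did not pass. PDK1, a kinase that inhibits pyruvate dehydrogenase, stood near background and was detected on 2 of 6 arrays. Its values over all 6 arrays ran from 4.44 to 4.86, and the MDA-MB-231 arms overlapped.

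**Figure D2:**
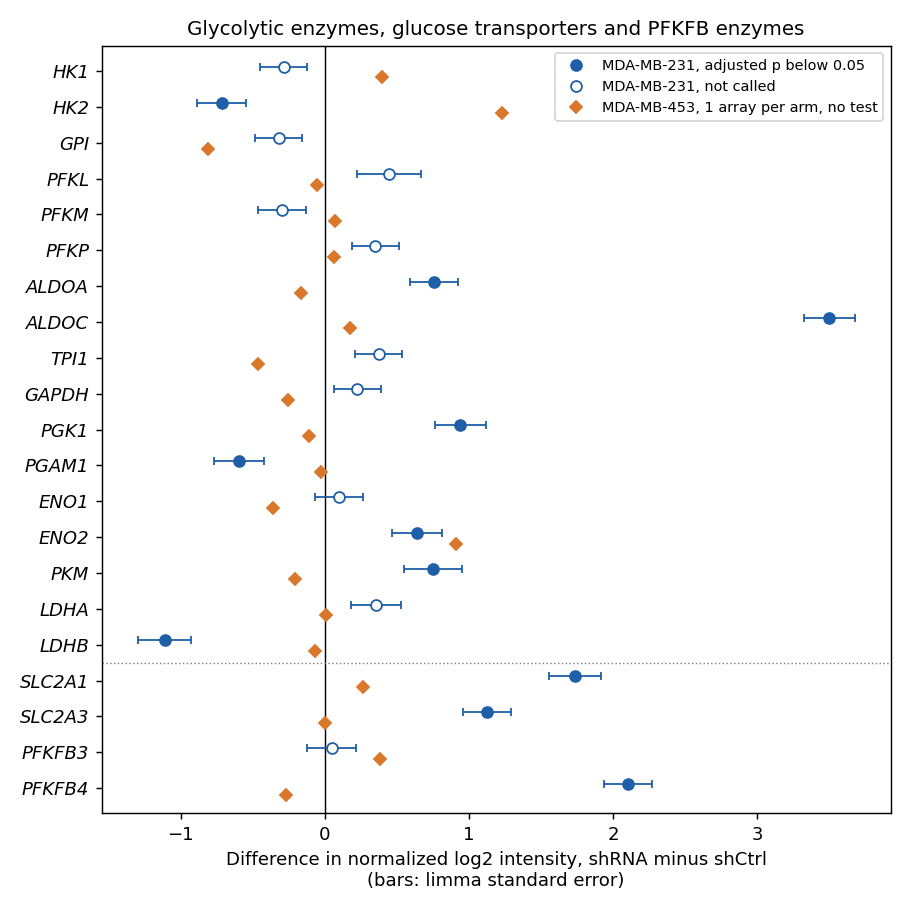
Difference in normalised log2 intensity, shRNA minus shCtrl, for 17 glycolytic enzymes in pathway order and, below the dotted line, 4 genes for glucose transporters and PFKFB enzymes. Symbols are as defined in the legend of the plot, with limma SE as bars for MDA-MB-231. ALDOC stands apart at 3.50 and LDHB is lowest at -1.11. HK2 has opposite signs in the lines, -0.71 and 1.23, on the plotted probe but not on its other probe (0.14 and 0.86).

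Both glucose transporters rose. SLC2A1 (GLUT1), the basal glucose transporter, read 10.54 and 10.81 with shCtrl and 12.35 and 12.47 with shRNA-1, a rise of 1.74 ± 0.18 (3.33-fold, limma adjusted p = 0.000154). SLC2A3 (GLUT3), a high-affinity transporter, read 10.16 and 10.05 against 11.30 and 11.16, a rise of 1.12 ± 0.17 (limma adjusted p = 0.00113). Both genes had shRNA-1 arrays above both controls. SLC2A3 was not detected on either MDA-MB-453 array.

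Neither hexokinase, the enzyme that traps glucose in the cell, rose. HK2, the isozyme usually induced by HIF and MYC, read 9.35 and 9.33 with shCtrl and 8.52 and 8.73 with shRNA-1, and fell by 0.71 (SE 0.17, limma adjusted p = 0.0106). Its other probe gave 0.14 and was not called, and the mean over its probes gave -0.29 (limma adjusted p = 0.194), so the fall rests on 1 probe. HK1, the broadly expressed isozyme, read 12.93 and 13.03 against 12.70 on both shRNA-1 arrays, a difference of -0.28 (limma adjusted p = 0.209). GPI, which converts the product of hexokinase, differed by -0.32 (limma adjusted p = 0.16).

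Phosphofructokinase commits sugar to glycolysis, and none of its subunits passed the test. PFKL, PFKP and PFKM differed by 0.44, 0.35 and -0.30. PFKL read 8.68 on 1 shRNA-1 array and 8.07 on the other, against 7.91 and 7.96. PFKP read 12.30 and 12.34 with shCtrl and 12.64 and 12.70 with shRNA-1, and PFKM 9.88 and 9.81 against 9.48 and 9.61. The arms of all 3 were separated, by less than the test could call. The bifunctional PFKFB enzymes set the level of the main activator of phosphofructokinase. PFKFB4 read 8.53 and 8.51 with shCtrl and 10.68 and 10.55 with shRNA-1, a rise of 2.10 ± 0.17 (4.29-fold, limma adjusted p = 3.73e-05). PFKFB3, its more widely studied relative, read 11.40 and 11.51 against 11.44 and 11.55. The PFKFB3 arrays of the 2 arms overlapped, and the interval of its difference was -0.33 to 0.43.

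The aldolases, which split the sugar into trioses, both rose. ALDOC, the isozyme known from brain, read 6.70 and 6.43 with shCtrl and 10.07 on both shRNA-1 arrays, a rise of 3.50 ± 0.17 (11.3-fold, limma adjusted p = 2.85e-06). ALDOA, the common isozyme, read 11.79 and 11.83 against 12.62 and 12.52, a rise of 0.76 ± 0.16 (limma adjusted p = 0.00688). A second bright ALDOA probe gave 1.03, and a dim one gave -0.38 and was not called.

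Lower glycolysis was mixed. PGK1, the first enzyme of the pathway to make ATP, rose by 0.94 ± 0.18 (limma adjusted p = 0.00349), from 11.78 and 12.06 to 12.83 and 12.89. PKM, pyruvate kinase, rose by 0.75 ± 0.20 (limma adjusted p = 0.0185). Its 3 probes gave 0.75, 0.98 and 0.51, of which the last was not called. Which splice forms these probes read was not examined. ENO2, the enolase known from neurons, rose by 0.64 ± 0.17 (limma adjusted p = 0.018), from 10.01 and 9.79 to 10.57 and 10.51, and did not pass under median scaling (0.47, limma adjusted p = 0.0588). The common isozyme ENO1 differed by 0.10 (limma adjusted p = 0.678), reading 14.22 and 14.15 against 14.35 and 14.23. TPI1 and GAPDH differed by 0.37 and 0.23 and did not pass, although a second TPI1 probe was called at 0.92.

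PGAM1, phosphoglycerate mutase, fell by 0.60 (SE 0.17, limma adjusted p = 0.0237), from 12.78 and 12.85 to 12.11 and 12.32, and its other probe gave -0.56. The coding sequence of PGAM1 is nearly identical to that of PGAM4, so its probes may bind both transcripts and the source of the signal is uncertain. The probe named for PGAM4 differed by -0.32 (limma adjusted p = 0.205).

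Of the lactate dehydrogenase subunits, LDHB fell and LDHA did not pass the test. LDHB, the heart-type subunit, read 13.10 and 13.34 with shCtrl and 12.25 and 11.97 with shRNA-1, and fell by 1.11 (SE 0.19, 2.16-fold, limma adjusted p = 0.00197). LDHA, the muscle-type subunit and a classic HIF and MYC target, read 13.91 and 14.11 against 14.40 and 14.34, a difference of 0.36 that did not pass (limma adjusted p = 0.135, interval -0.03 to 0.74). A dimmer LDHA probe was called at 0.64.

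**Figure D3:**
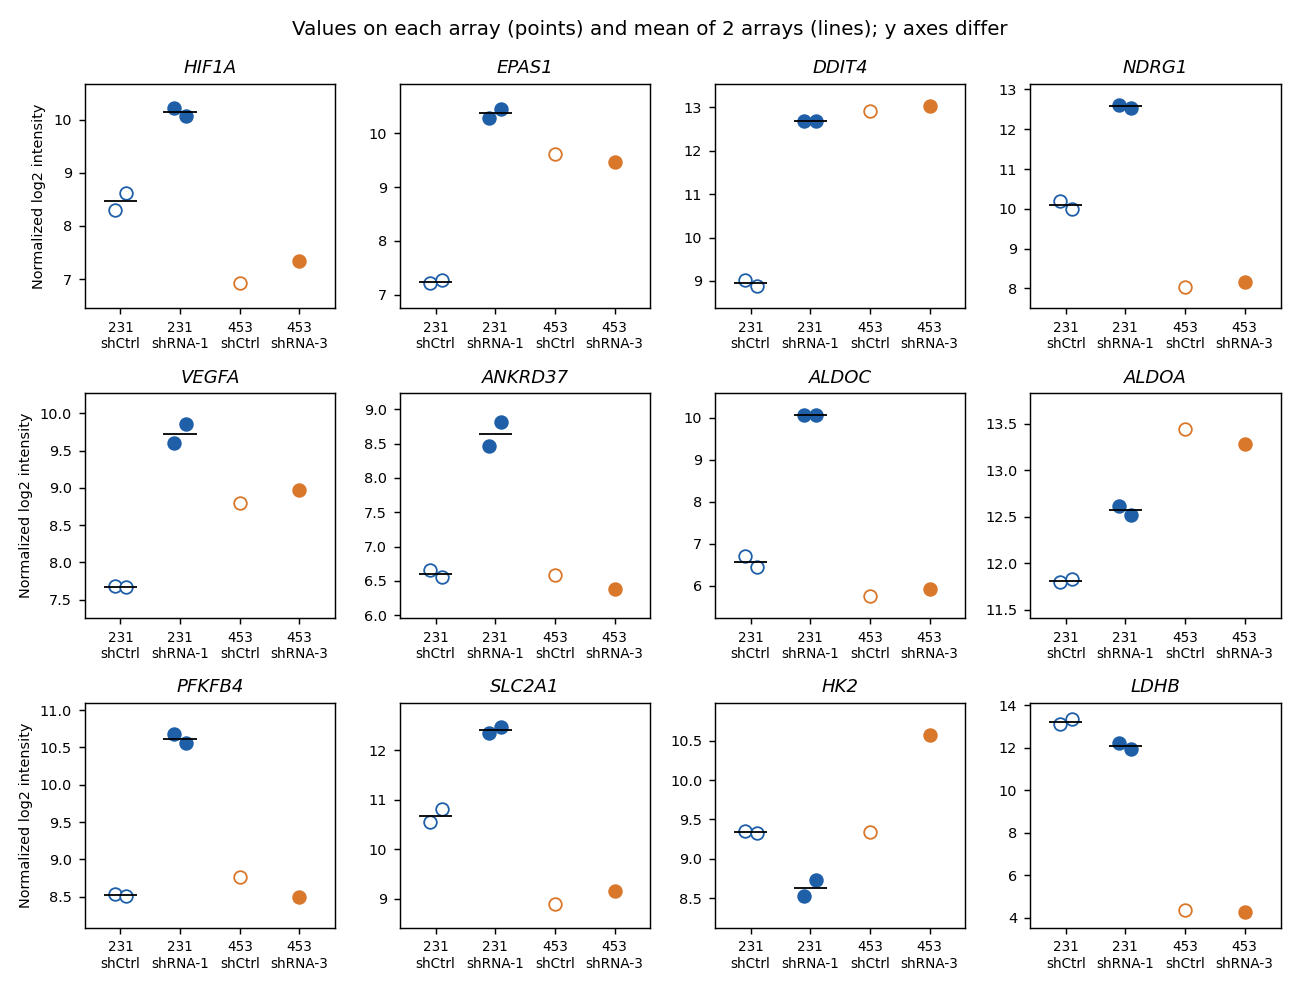
Normalised log2 intensity on each array for 12 of the genes, in separate panels with their own y axes (open circles are shCtrl, filled circles are shRNA, blue is MDA-MB-231 and orange is MDA-MB-453). Lines mark the mean of 2 arrays. In MDA-MB-231 the arms are separated in all 12 panels, upward in 10 and downward for HK2 and LDHB, and the MDA-MB-453 pair differs by over 1 only for HK2.

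Leaving out an array changed mainly the calls with small differences. Without shCtrl replicate 1 the numbers that rose and fell were 15 and 1, and without shCtrl replicate 2 they were 16 and 1, with LDHB the gene that still fell in both. Glycolytic enzymes that rose numbered 3 and 2 in these fits. ALDOA, ENO2, HK2, PGAM1 and ADM lost their calls without either control array, P4HA1 and KDM3A without replicate 1, and PKM without replicate 2. Without shRNA-1 replicate 1, PGAM1 and PKM were not called and CA12 and BNIP3 rose, and the median of the glycolytic enzymes was 0.18. Without shRNA-1 replicate 2, ADM was not called and PFKL rose. Of the 23 genes called, 15 kept their call in every alternative in which they were tested: ALDOC, PGK1, LDHB, SLC2A1, SLC2A3, PFKFB4, VEGFA, NDRG1, DDIT4, BNIP3L, ANKRD37, EGLN3, P4HA2, HIF1A and EPAS1.

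To set the differences beside those of the surrounding chromosome, each gene was set beside the median difference of the tested genes 6 to 25 places away on either side. These medians ran from -0.69 around PDK1 to 0.56 around BNIP3L. The neighbours of EPAS1 and HIF1A had medians of -0.27 and -0.28, so both subunits rose where the surrounding genes were lower. BNIP3L and PGK1 rose where neighbours were higher, by medians of 0.56 and 0.33, and stood 0.77 and 0.61 above them. HK2, PGAM1 and LDHB lay among neighbours at -0.34, -0.32 and -0.20. HK1 differed from its neighbours by -0.01. After subtraction of the neighbours' median, the median difference was 0.96 for HIF target genes and 0.27 for glycolytic enzymes.

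**Figure D4:**
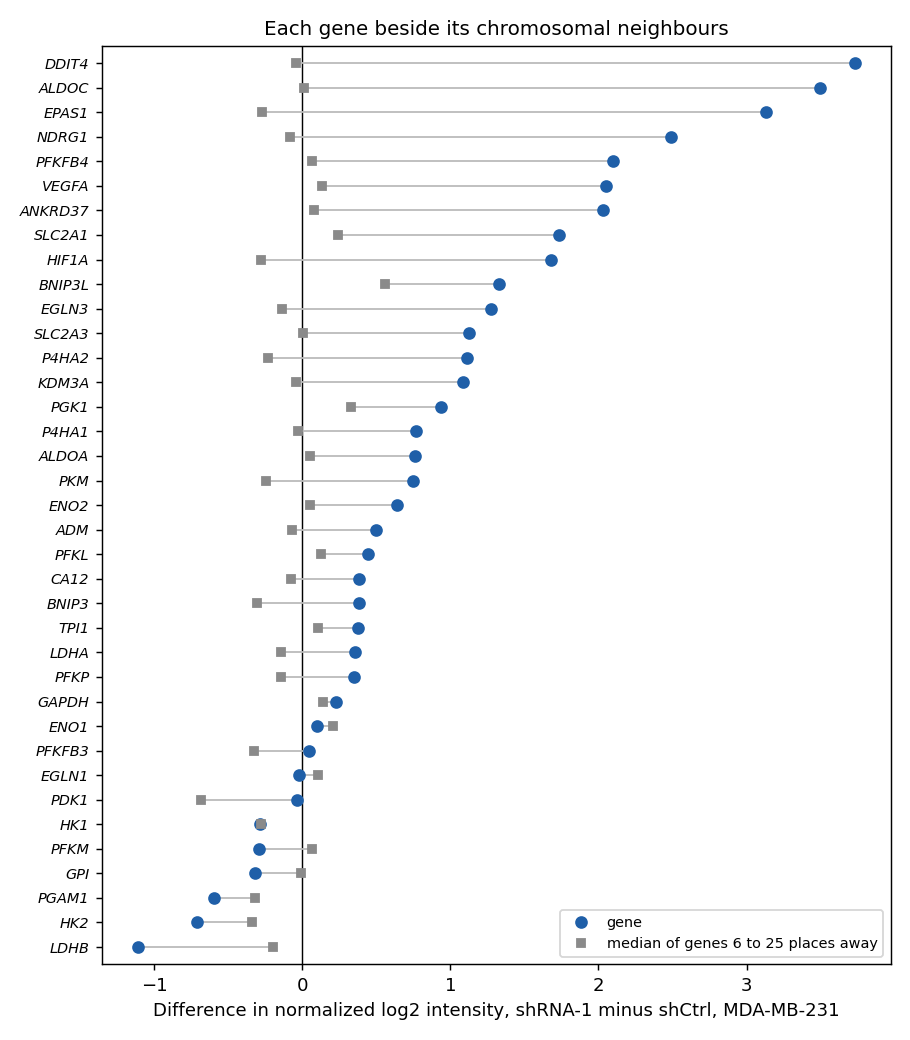
Difference in normalised log2 intensity in MDA-MB-231, shRNA-1 minus shCtrl, for each of the 37 genes (circles) and the median of the tested genes 6 to 25 places away on the same chromosome (squares). The squares stay between -0.69 and 0.56, whereas the circles run from -1.11 for LDHB to 3.73 for DDIT4.

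Markers of the other line moved in the same arrays. Of the 6 measured MDA-MB-453 markers, SPDEF, AGR2 and KRT8 rose in MDA-MB-231 with shRNA-1, SPDEF and AGR2 from shCtrl arrays on which neither was detected. FOXA1 fell and was not detected on either shRNA-1 array. ERBB2 and KRT18 differed by 0.40 and 0.05 and did not pass. Over all genes 19.5% rose and 19.7% fell. The mean over the 6 markers was 7.02 and 7.15 on the shCtrl arrays, 8.37 and 8.38 on the shRNA-1 arrays, and 11.13 and 11.32 on the MDA-MB-453 arrays. SPDEF and AGR2 had the largest differences in that mean, 4.92 and 4.72 from background readings. It also includes KRT18, which was higher in the MDA-MB-231 controls. Of the 7 MDA-MB-231 markers, SPARC fell, 0 rose, and their mean was 11.57 and 11.71 with shCtrl and 11.22 and 11.37 with shRNA-1. Of the genes that rose, DDIT4, EPAS1, VEGFA, EGLN3 and ALDOA were also higher in MDA-MB-453 than in MDA-MB-231 controls. ALDOC, ENO2, PKM, SLC2A1, SLC2A3, NDRG1, ADM, P4HA1, P4HA2 and HIF1A were higher in the MDA-MB-231 controls. PGK1, PFKFB4, BNIP3L, ANKRD37 and KDM3A did not pass between the lines. The part of the marker changes in any of these rises was not tested.

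Within MDA-MB-453, with 1 array per arm, no test was possible and the set stayed close to the control. Of the 37 genes, 21 were higher with shRNA-3 and 16 lower, where 52.0% of all genes were higher. HK2 alone passed 2-fold, at 9.35 with shCtrl and 10.58 with shRNA-3, where 1.51% of all genes were higher and 1.56% lower by that much. Its other probe gave 0.86. ENO2 was higher by 0.91, from 7.92 to 8.83. GPI was lower, at 11.88 with shCtrl and 11.07 with shRNA-3, and CA12 stood at 12.35 and 11.73. Among those called higher in MDA-MB-231, ENO2 was the one with the largest difference here, and the others ran from -0.37 for BNIP3L to 0.45 for EGLN3 on the chosen probes. ALDOC read 5.75 with shCtrl and 5.92 with shRNA-3, SLC2A1 8.89 and 9.15, and PFKFB4 8.76 and 8.49. VEGFA read 8.79 and 8.97, NDRG1 8.04 and 8.16, and ANKRD37 6.58 and 6.38. BNIP3L read 8.47 and 8.10, while EGLN3, which was well detected in this line, read 8.68 and 9.13. P4HA2 stood at 8.22 and 8.43, and KDM3A at 7.30 and 7.63. The median difference of glycolytic enzymes was -0.05, and 0.17 under median scaling, where that of all genes was 0.26. For HIF target genes it was 0.15, and 0.44 under median scaling.

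The difference between the effects in the 2 lines was tested in the same fit, on the assumption that the MDA-MB-453 arrays vary like the replicated MDA-MB-231 arrays. It passed for 12 of the 37 genes, against 13.6% of all genes. The effect was higher in MDA-MB-231 for 11 of them, where this held for 7.30% of all genes. The 11 were EPAS1, HIF1A, DDIT4, NDRG1, VEGFA, ANKRD37, BNIP3L, ALDOC, PFKFB4, SLC2A1 and SLC2A3. DDIT4 had the largest of these differences, 3.61 ± 0.29 (limma adjusted p = 0.000172), and SLC2A3 the smallest, 1.12 ± 0.29 (limma adjusted p = 0.038). SLC2A3 was not detected in MDA-MB-453, so its values there are background readings. The HIF1A call is for the chosen probe, with 1.68 in MDA-MB-231 and 0.43 in MDA-MB-453. The other HIF1A probes were higher by 0.99 and 0.93 in MDA-MB-453, and the smaller of their MDA-MB-231 differences was 1.47. They thus differed less between the lines, and that difference was not tested for them. HK2 was the gene with the opposite sign, -1.94 ± 0.29 (limma adjusted p = 0.00411), on the chosen probe. Its other probe gave 0.14 in MDA-MB-231 and 0.86 in MDA-MB-453, the same sign in both lines. The difference between lines was not tested for that probe. ENO2, with 0.64 in MDA-MB-231 and 0.91 in MDA-MB-453, had a difference between lines of -0.27 that did not pass (limma adjusted p = 0.591).

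With both lines combined, 3 shRNA arrays against 3 shCtrl arrays in a model with cell line, 0 of the 37 genes passed at an adjusted p of 0.05 in limma, where 0.0384% of all genes did. At an unadjusted p below 0.05 there were 19, against 30.6% of all genes, and 17 of them were higher with shRNA, against 15.8%. Requiring detection on all 6 arrays left 8952 genes in the adjustment, 33 of them from this set. Of these 33, ALDOC, ENO2, SLC2A1, VEGFA, NDRG1, DDIT4 and HIF1A passed, where 10.7% of the 8952 genes did. Their combined differences ran from 0.73 for ENO2 to 2.53 for DDIT4, with limma adjusted p-values from 0.038 to 0.0463. All of them except ENO2 were also among the genes named above whose effect was higher in MDA-MB-231. In MDA-MB-453 their chosen probes differed by 0.12 (DDIT4) to 0.43 (HIF1A), so on these probes their combined values average unlike effects. ENO2 differed by 0.64 in MDA-MB-231, 0.47 under median scaling, and by 0.91 in MDA-MB-453.

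The control arrays show how far the lines differ before any knockdown. Between the shCtrl arrays, 27 of the 37 genes differed, against 52.9% of all genes, and 19 of the 27 were higher in MDA-MB-231 and 8 in MDA-MB-453, against 26.0% and 26.9% of all genes. The MDA-MB-453 group is 1 array here. LDHB read 13.10 and 13.34 in MDA-MB-231 and was not detected in MDA-MB-453, at least 318-fold lower there (limma adjusted p = 8.51e-08). SLC2A3 was at least 36.7-fold higher in MDA-MB-231 (limma adjusted p = 1.53e-07). LDHB and SLC2A3 passed the detection filter only through the MDA-MB-231 arrays, so both could enter the count only as higher in that line. In MDA-MB-453 the other lactate dehydrogenase subunit LDHA read 13.54 and 13.55. LDHC, the testis-type isozyme, was detected there at 8.18 and 7.69, and on neither MDA-MB-231 shCtrl array, so that it was at least 10.4-fold higher in MDA-MB-453. LDHC passed the detection filter only with the MDA-MB-453 arrays. ADM was 24.2-fold higher in MDA-MB-231, with 11.11 and 11.13 against 6.52. Among glycolytic enzymes, PFKP was 5.21-fold and PGAM1 4.43-fold higher in MDA-MB-231.

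Other genes stood higher in MDA-MB-453. CA12 read 12.35 there and 8.03 and 8.10 in MDA-MB-231, a 19.5-fold difference (limma adjusted p = 1.45e-06). DDIT4 was 15.6-fold higher, EPAS1 5.17-fold and VEGFA 2.17-fold. EGLN3, not detected on the MDA-MB-231 shCtrl arrays, was at least 14.7-fold higher in MDA-MB-453 (limma adjusted p = 1.49e-06). The aldolases differed in direction, with ALDOA 3.11-fold higher in MDA-MB-453 and ALDOC 1.76-fold higher in MDA-MB-231. HK2, PGK1, ANKRD37, PFKFB4 and GAPDH did not pass between the lines.

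**Figure D5:**
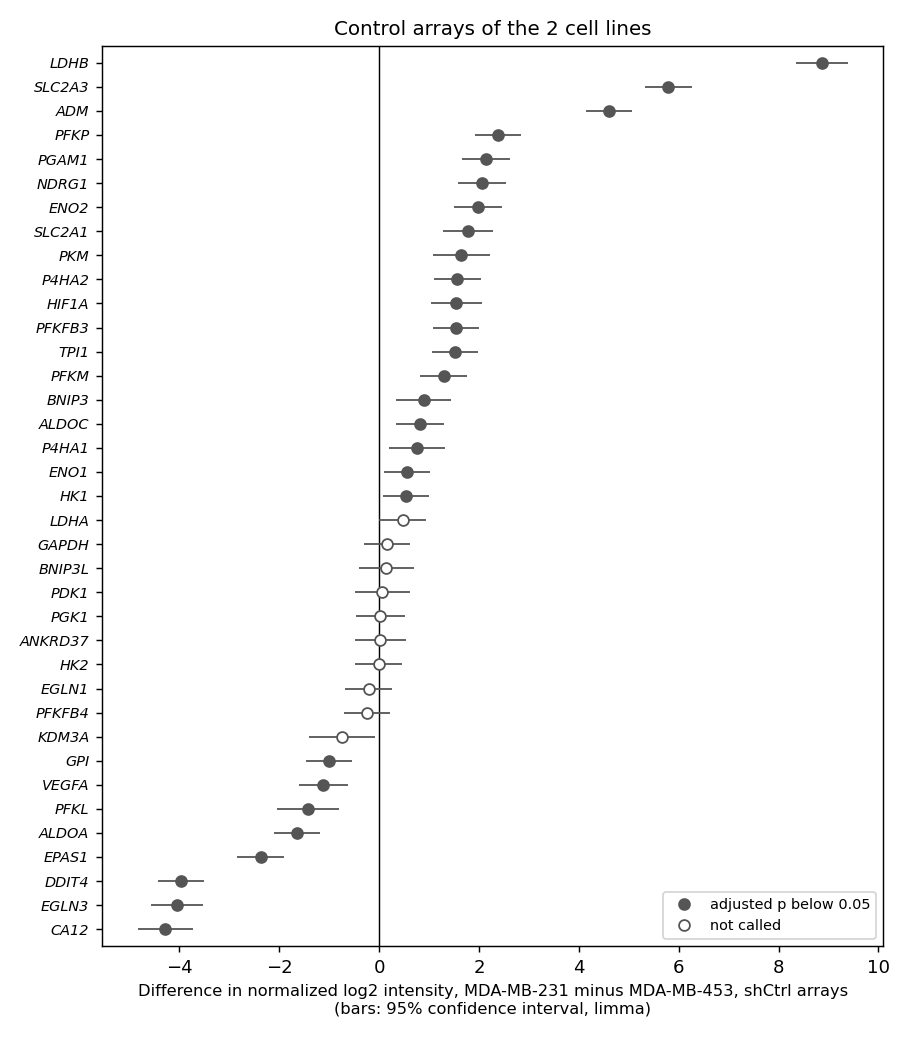
Difference in normalised log2 intensity between shCtrl arrays, MDA-MB-231 (2 arrays) minus MDA-MB-453 (1 array), with limma 95% confidence intervals, filled where the adjusted p was below 0.05. LDHB is highest at 8.86, a value limited by background in MDA-MB-453, and CA12 is lowest at -4.29.

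The wider pathway was described through 4 further gene lists. In MDA-MB-231, 15 of 39 further measured HIF target genes rose and 2 fell, with a median of 0.33, where 19.5% of all genes rose and 19.7% fell. The 15 include BHLHE41, which passed the detection filter only through the shRNA-1 arrays and could enter the count only as a rise. CCNG2, an unconventional cyclin linked to growth arrest, rose by 2.91 ± 0.29 from 5.67 and 5.59 to 8.04 and 9.03. ZNF395, a hypoxia-induced zinc finger protein, rose by 2.10 and BHLHE40, a circadian repressor, by 2.00. CXCR4, the chemokine receptor, was detected on both shCtrl arrays at 7.36 and 7.39 and on neither shRNA-1 array, at least 6.05-fold lower (limma adjusted p = 4.92e-06). TFRC, the transferrin receptor, fell by 0.61.

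Of 18 measured regulators of the HIF pathway, 4 rose and 3 fell, with a median of 0.05. These counts are near the shares of all genes (19.5% and 19.7%), so the genes named next are single values and no result about the regulators. The 3 largest rises were those of ELOB, a subunit of the VHL ligase, by 0.92, of OS9, an endoplasmic reticulum lectin, by 0.91, and of ARNT2, a HIF beta subunit, by 0.79. The falls were those of CUL2, the scaffold of the VHL ligase, from 10.46 and 10.78 to 9.19 and 9.07 (1.49 ± 0.18 lower on the log2 scale), ELOC by 0.92 and SIAH2, a ubiquitin ligase for prolyl hydroxylases, by 0.64. The neighbours of CUL2, ELOC and SIAH2 were lower too, with medians of -0.79, -0.64 and -0.58. Those of ELOB, OS9 and ARNT2 had medians of -0.01, 0.02 and -0.50. VHL itself differed by 0.31 (limma adjusted p = 0.179), and ARNT, the main beta subunit, by 0.00.

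Of 14 measured genes for the fate of pyruvate, 2 rose and 3 fell, with a median of 0.10, again near the 19.5% and 19.7% of all genes. PC, pyruvate carboxylase, rose by 2.51 ± 0.16, from 7.29 and 7.36 to 9.86 and 9.81. PDK4, a kinase that inhibits pyruvate dehydrogenase, was not detected with shCtrl and was at least 2.99-fold higher with shRNA-1. It passed the detection filter only through the shRNA-1 arrays, so it could enter the count only as a rise. MPC1, a subunit of the mitochondrial pyruvate carrier, and PDHX and PDHA1, subunits of pyruvate dehydrogenase, fell by 0.81, 0.81 and 0.53.

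Of 25 measured genes of side branches and other isozymes, 3 rose and 7 fell, with a median of -0.02, beside 19.5% and 19.7% of all genes. SLC2A12 and SLC2A8, further sugar transporters, rose by 2.21 and 1.35, and PGLS, of the pentose phosphate pathway, by 1.14. RPE, also of that pathway, fell by 1.79, TIGAR, which lowers glycolytic flux, by 1.71 and PGM2, a phosphopentomutase, by 1.69. All 6 passed in limma with adjusted p-values of 0.00324 or lower. SLC2A12 read 4.81 and 5.04 on the shCtrl arrays, near background, and was detected on 1 of them. It passed the detection filter only with the shRNA-1 arrays, so its place in the count is limited as that of PDK4 is, and its rise has no exact size.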

How the data were processed

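Biotinylated cRNA was made with the Ambion MessageAmp kit and hybridised to Illumina arrays, per the labels' protocols. The authors deposited non-normalized probe intensity values for 48107 probes on 6 arrays. A detection p-value stands beside each intensity, per the file headers. The deposited processed values are on the log2 scale and equal quantile-normalized log2 intensities without background correction to within 5.26e-09. The program that made the intensities is not given in the sources used here. All arrays carry the same batch label, so no batch could be tested.

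Gene symbols came from the platform table held by GEO, whose names may be dated (1 symbol for 30113 probes, several for 8, none for 17986). Of these, 30074 were matched to RefSeq's gene table for GRCh38.p14, used for names and gene order only. Background was corrected with limma 3.58.1 in R 4.3.3 (normexp, controls inferred from detection p, offset 16), followed by quantile normalization and log2. Differences were tested with lmFit and eBayes on 13022 genes with 4 group means (2 residual degrees of freedom and a prior worth 6.52), two-sided, with Benjamini-Hochberg adjustment. An exact permutation of 2 against 2 arrays cannot give a p below 0.333, so smaller values rest on the spread shared between genes. Where no array of a group detected a gene, its fold is a lower bound, with each dim array set no lower than the lowest detected signal on it. The script was tested on simulated data.

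The genes and lists were chosen with earlier results of these data known. Full values were given for genes called with a difference of at least 1 in either line, paralogue pairs and HIF alpha subunits, and for up to 3 genes per direction in each further list. Among the 15 genes with more than 1 kept probe, opposite calls occurred in 0, and in 6 only some probes were called. Alternatives varied the background correction, scaling, filter, probe choice, samples and replicate block.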

Additional observations from a re-analysis of the deposited data

Results flagged for a closer look

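The effect of the labelled knockdown differed between the lines, by limma's test of that difference (adjusted p below 0.05), for 12 of the 37 glycolysis and hypoxia genes. The values are the effect in MDA-MB-231 minus the effect in MDA-MB-453 on the log2 scale. They were 3.61 for DDIT4, 3.33 for ALDOC, 3.28 for EPAS1, 2.37 for PFKFB4, 2.36 for NDRG1, 2.23 for ANKRD37, 1.87 for VEGFA, 1.70 for BNIP3L, 1.47 for SLC2A1, 1.25 for HIF1A, 1.12 for SLC2A3 and -1.94 for HK2. Line and hairpin cannot be told apart in any of them. The HIF1A value is that of the chosen probe, which was higher by 0.43 in MDA-MB-453. Its other probes were higher there by 0.99 and 0.93 and were not tested for a difference between the lines.

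The same test passed for 25 of the 96 measured genes of the further lists, 16 higher in MDA-MB-231 and 9 lower, where 13.6% of all genes passed and 7.30% were higher. Of these, 17 are named here, and the other 8 were all higher in MDA-MB-231. Higher in MDA-MB-231 were PC (3.57), CCNG2 (2.44), ZNF395 (2.16), SLC2A12 (2.15), PDK4 (2.04), BHLHE40 (1.56), FAM162A (1.19) and SLC2A8 (1.17). Lower in MDA-MB-231 were FBP1 (-3.17), IGFBP3 (-2.81), PCK2 (-2.19), CXCR4 (-2.14), SLC2A10 (-1.88), CUL2 (-1.87), ARNT (-1.28), RPE (-1.19) and HILPDA (-1.09). SLC2A12 and PDK4 were not detected on either MDA-MB-453 array, PDK4 was not detected on the MDA-MB-231 shCtrl arrays, CXCR4 not on the shRNA-1 arrays, and ARNT not on the MDA-MB-453 shCtrl array. The values of these 4 genes are fitted differences that rest on background readings and give no exact size. PDK4 passed the detection filter only through the shRNA-1 arrays, as did BHLHE41 among the 8 genes not named. SLC2A12 was detected on 1 MDA-MB-231 shCtrl array and passed only with the shRNA-1 arrays.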

How the results depend on the processing

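The count of genes that rose in MDA-MB-231 stayed between 15 and 22 over all alternatives run, and those that fell between 1 and 3. Leaving out each MDA-MB-231 array in turn, the glycolytic enzymes that rose numbered 2 to 6 and those that fell 1 to 3, with medians of 0.18 to 0.37, and the HIF target genes had medians of 0.89 to 1.19. With a single control array left, its spread is assumed to equal that of the other group. The median of the HIF target genes in MDA-MB-231 was 0.83 with no background correction, 0.79 with an offset of 50, 0.99 under median scaling, 0.93 with the mean of all detected probes and 0.96 after subtraction of neighbouring genes. For glycolytic enzymes it was 0.30 under median scaling and 0.27 after that subtraction. In MDA-MB-453 median scaling gave 0.17 and 0.44, where all genes shifted to 0.26. Across lines 7 of 33 genes passed when genes had to be detected on all 6 arrays, where 10.7% of all genes did. No single gene reversed a call. Over all genes, median scaling gave 2189 rises and 2912 falls, against 2536 and 2567. It also moved the median of all genes between the control arrays from 0.00 to 0.15. Genes whose effect differs between lines numbered 8 to 18 over the alternatives, 18 of them with no background correction and 8 without shCtrl replicate 1.

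Same-numbered MDA-MB-231 arrays share only a number, since the labels do not tie them together. Their deviations correlated at 0.07. With the number as a replicate block, 19 genes were called higher and 3 lower with shRNA-1, the effect differed between lines for 10, 0 passed across lines, and 16 and 8 differed between the control arrays. ADM lost its call (limma adjusted p = 0.0523). Signal near background limits PDK1 on all arrays, EGLN3 in MDA-MB-231 controls, and LDHB and SLC2A3 in MDA-MB-453.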

Other observations

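In MDA-MB-453, 8 of the 96 measured genes in the further lists were higher with shRNA-3 by 2-fold or more, where 1.51% of all genes were, and 3 were lower, where 1.56% were. They were picked after their values were seen, rest on 1 array per arm and have no test within that line. IGFBP3, a binding protein of insulin-like growth factors, read 7.77 with shCtrl and 11.16 with shRNA-3. FBP1 and PCK2, enzymes that run glycolysis backwards in gluconeogenesis, read 6.66 and 8.65, and 11.21 and 12.33. In MDA-MB-231 both of them fell, FBP1 by 1.19 ± 0.18 and PCK2 by 1.07 ± 0.16 (SE; limma adjusted p = 0.00108 and 0.0013). SLC2A10, a glucose transporter, and STC2 and HILPDA, known hypoxia-induced genes, were higher in MDA-MB-453 by 1.40, 1.38 and 1.07. PFKFB2 was higher by 1.05, and ARNT, not detected on the shCtrl array, was at least 2.20-fold higher. PC, pyruvate carboxylase, was lower at 6.95 against 8.02, whereas it rose in MDA-MB-231. FAM162A, a hypoxia-induced mitochondrial protein, and TIGAR stood at -1.13 and -1.04.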
